A study of Homo sapiens with 4 samples.

Results

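Ribosome synthesis begins in the nucleolus, where RNA polymerase I (Pol I) transcribes the ribosomal DNA repeats into a long precursor. Small nucleolar ribonucleoproteins (snoRNPs) of the box C/D class methylate ribose groups of this precursor, and those of the box H/ACA class turn uridines into pseudouridines. The small-subunit processome, DEAD-box helicases and large-subunit factors such as the PeBoW complex then fold and cleave the RNA as ribosomal proteins join it. Growing cancer cells are known for a high demand on this pathway. The genes described here were those of the ribosome biogenesis and Pol I machinery, chosen by symbol from the rows of protein-coding type, namely POLR1, NOP, UTP, NOL and RRP symbols, IMP3 and IMP4, 11 DEAD-box helicases and 10 single genes (NCL, NPM1, FBL, DKC1, GAR1, NHP2, BOP1, PES1, WDR12 and UBTF). They came to 61 genes with 129 protein-coding transcripts, out of 12120 genes with 26348 protein-coding transcripts in the table.

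The cells were of the line MDA-MB-231, which was established long ago from a human breast cancer that lacks hormone receptors and HER2 (triple-negative), treated for 24 h with 10 µM KH-3, a small molecule that inhibits the binding of the RNA-binding protein HuR (ELAVL1) to AU-rich mRNA, or with DMSO, the solvent control. RNA-seq libraries were made from 2 biological replicates per group, all 4 from the same line. The table held a single mean normalized read count per transcript, pooled over libraries by the authors, so the values below describe the levels of these genes in this experiment and not the effect of KH-3. The table also holds the authors' own comparison of KH-3 with DMSO, which was not used here, and it gave no value per library from which another comparison or an error could be computed. Because the values are normalized, the amount of RNA per cell is not in them, and fewer cells expressing a gene cannot be told apart from less RNA per cell. The level of a gene below is the mean normalized read count per kilobase of transcript length, summed over its protein-coding transcripts. It allows genes to be compared per length, but the order of close neighbours could not be judged against a spread.

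The markers of the line were checked before the results. All 6 genes expected in MDA-MB-231 were listed and 4 of them (VIM, AXL, CAV1 and CD44) lay above the median level of protein-coding genes, while SPARC at 84.0 and FN1 at 7.35 per kilobase lay below it. Of 8 luminal, epithelial or basal genes expected to be low, 4 had no protein-coding row (ESR1, PGR, CDH1 and KRT5) and none lay above the median. Of PTPRC, CD3E, PECAM1 and ALB, which mark other cell types, only PECAM1 had a protein-coding row, at a level of 4.08 per kilobase. Rows of other types were not searched for these markers.

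A pyrimidine run at the transcription start, which marks mRNAs of the translation machinery as a class, and the E-box bound by MYC-type factors are known features of genes in this pathway, and the members that carry them are shown here before their levels. Promoters were read from RefSeq (GRCh38.p14, 250 bases before to 50 after the gene start), which matched 51 of the 61 genes. BOP1, DDX18, DDX49, DDX52, NOL10, NOP58, POLR1E, RRP12, RRP1B and UTP23 had no entry. A start of C followed by 4 further pyrimidines (C or T, transcribed strand only) was present in 5 of 51 (9.80%), against 5.35% of promoters of genes in the table and 4.04% of all 27305 promoters. These 5 starts are printed from the annotated start base onwards, with the unbroken pyrimidine run in capitals:
NPM1 (chr5:171387849-171387873, + strand): CTTTCCCTggtgtgattccgtcctg
DDX21 (chr10:68956170-68956194, + strand): CTCTTCCTCTCCacgcggttgagaa
DDX54 (chr12:113185454-113185478, - strand): CTTCTgcgttcccagcgcgcggccc
FBL (chr19:39846355-39846379, - strand): CTTTTCCacgtgcgaaagccccgga
UTP14A (chrX:129906164-129906188, + strand): CCTTCggcttccgttcttggtccat

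The run was 12 bases long in DDX21, 8 in NPM1, 7 in FBL and 5 in DDX54 and UTP14A. The start shown was also the annotated start (GENCODE release 44) of the leading transcript, the protein-coding transcript with the highest level, in DDX21 and UTP14A. In NPM1 the leading transcript started 733 bases upstream of it, and in DDX54 and FBL the leading transcripts started 1676 and 5938 bases downstream. In these 3 genes the run was thus not at the annotated start of the leading transcript. The leading models of DDX54 and FBL are tagged in release 44 as incomplete (start or end not found), so their first base may not be a true start. Members with such a start had levels from 376 to 16998 per kilobase.

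The E-box CACGTG, a palindrome and therefore the same on both strands, was present in 14 of 51 promoters (27.5%), against 10.1% of promoters of genes in the table and 7.43% of all promoters. The 8 sites below lay within 20 bases of the start in genes whose leading transcript began at that start, with the E-box in capitals:
NOP10 (chr15:34343131-34343158, - strand): aaattgacgaaCACGTGacgcggtcggg
UTP18 (chr17:51260539-51260566, + strand): cagcgaggttcCACGTGagcgcctgcgt
NOP14 (chr4:2963375-2963402, - strand): ccgcggcccggCACGTGtcttagggtag
NOL6 (chr9:33473895-33473922, - strand): gcatttccgccCACGTGggaagctatga
RRP9 (chr3:51941893-51941920, - strand): ggttcagctgcCACGTGagttctgcggc
PES1 (chr22:30591881-30591908, - strand): ccttggcagggCACGTGcgggaggaagt
UTP20 (chr12:101280084-101280111, + strand): ttttttccgtcCACGTGacccactcagg
IMP4 (chr2:130342901-130342928, + strand): tctcccggaccCACGTGgaagcggcact

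NOP10, UTP18 and IMP4 each held another E-box in the same window. The remaining genes with an E-box were NOL7, UTP4, DDX54, FBL, UTP14A and NOP2. The median level was 573 per kilobase in the 14 genes with an E-box and 270.2 in the 37 without, and the genes with an E-box spanned nearly the whole range, from IMP4 at 6.05 to NOP10 at 2571. CGGAAG, the core bound by ETS-family factors, was found on either strand in 27 of 51 promoters (52.9%, against 33.4% of promoters of genes in the table and 19.9% of all promoters), and the palindrome TCGCGA in 9 of 51 (17.6%, against 6.02% and 3.16%). These shares describe letters in a window and were not tested.

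**Figure D1:**
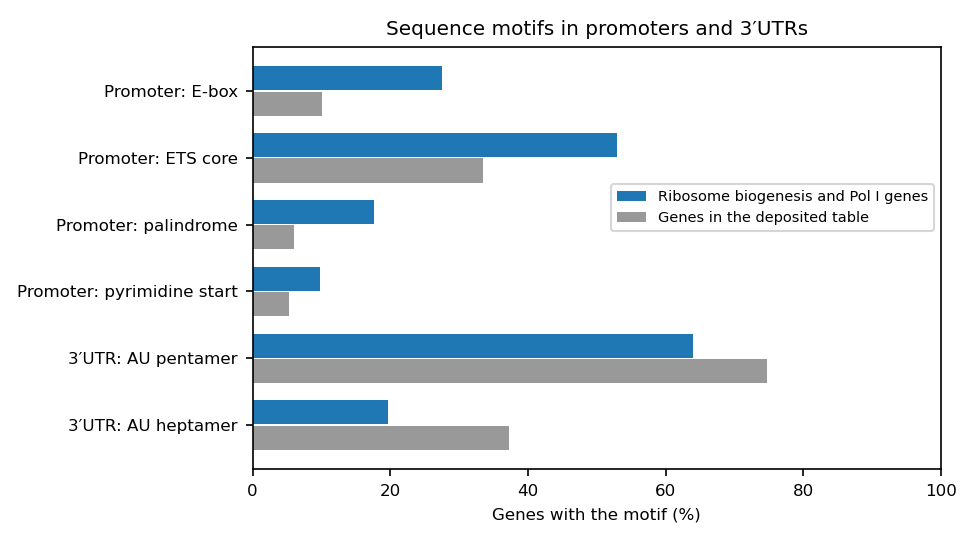
Share of genes (x axis, %) holding each motif in the promoter or 3′UTR, for the ribosome biogenesis and Pol I genes (blue) and for genes of the table (grey). The 4 promoter motifs were more frequent in the blue group, with the E-box at 27.5% against 10.1%, and the 2 AU-rich motifs were less frequent, with the heptamer at 19.7% against 37.3%.

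HuR binds AU-rich elements in 3′UTRs, so the 3′UTRs of the canonical transcripts in GENCODE release 44 were searched on the transcribed strand for the pentamer AUUUA and for the heptamer UAUUUAU, which contains it. The canonical transcript was listed for 57 of the 61 genes and was the leading one in 42. That of POLR1B had no row, and that of NPM1 carried 0.342% of the protein-coding level. The motifs below may thus lie outside the transcripts measured. The 3′UTRs of the 61 genes were short, with a median of 803 bases against 1386 for 12018 protein-coding genes of the table. The pentamer was present in 39 of 61 (63.9%, against 74.8%) and the heptamer in 12 of 61 (19.7%, against 37.3%). Pentamers were also fewer per kilobase of 3′UTR, at 1.81 against 2.33. Among 3′UTRs of 200 to 1000 bases the pentamer was present in 11 of 24 (45.8%), against 56.1% of all genes in that length class. Within this class the 3′UTRs of the members were still shorter, with a median of 424 bases against 531, so the difference in length was not removed from this share. Per kilobase, pentamers in this class were at 1.34 against 2.11. The heptamer was present in 1 of 24 (4.17%), against 17.4%. These differences were not tested. RRP15, a large-subunit factor, had 33 pentamers and 5 heptamers in 6892 bases, the most of any member, and NPM1 had none. The heptamers shown are those of DDX21, which had the highest level of the members with a heptamer, of POLR1B and WDR12, named below for their low protein-coding levels, and the 5′-most of RRP15, with the heptamer in capitals (hg38):
DDX21 (chr10:68984828-68984854, + strand): auucaaccugUAUUUAUaaauguauaa
POLR1B (chr2:112578548-112578574, + strand): auagcauauaUAUUUAUaguuuaacca
WDR12 (chr2:202880686-202880712, - strand): ucuuauuuugUAUUUAUaauaagauag
RRP15 (chr1:218332710-218332736, + strand): ugcauuuuugUAUUUAUucuaacuuuu

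The 61 genes were expressed at a high level as a group. Their median level was 343 per kilobase (quartiles 118 and 723), 2.93 times the median of 117 over all 12120 genes, and it sat at the 77.6th percentile of those genes. In all, 46 of 61 (75.4%) lay above the overall median and 17 (27.9%) lay among the highest 10%. For comparison, the median was 1790.7 in 83 cytosolic ribosomal protein genes, 414 in 77 mitochondrial ribosomal protein genes and 338 in 72 other ribosome synthesis genes, of which 60 lay above the overall median. The median of the members was thus close to that of the other synthesis genes and below that of the cytosolic ribosomal proteins. The upper quartile of the members was 723, against 534 in the other synthesis genes. The cytosolic set itself reached down to 3.65 in RPL3L, and RPL8 and RPL10 were at 16.9 and 19.2. Whether such low protein-coding sums, here or in the members, stand for little RNA of the gene was not tested. Of the 12 members with under 50% of their level on protein-coding transcripts, 7 lay below the overall median, against 8 of the other 49. Summed over all annotated transcript types, these 7 were at 1172 (WDR12), 369 (DDX52), 136.1 (DDX49), 135.9 (IMP4), 130 (RRP8), 114 (DDX51) and 53.8 (DDX56). POLR1B and NOL12 had no transcripts of other types and stayed at 29.1 and 31.8.

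**Figure D2:**
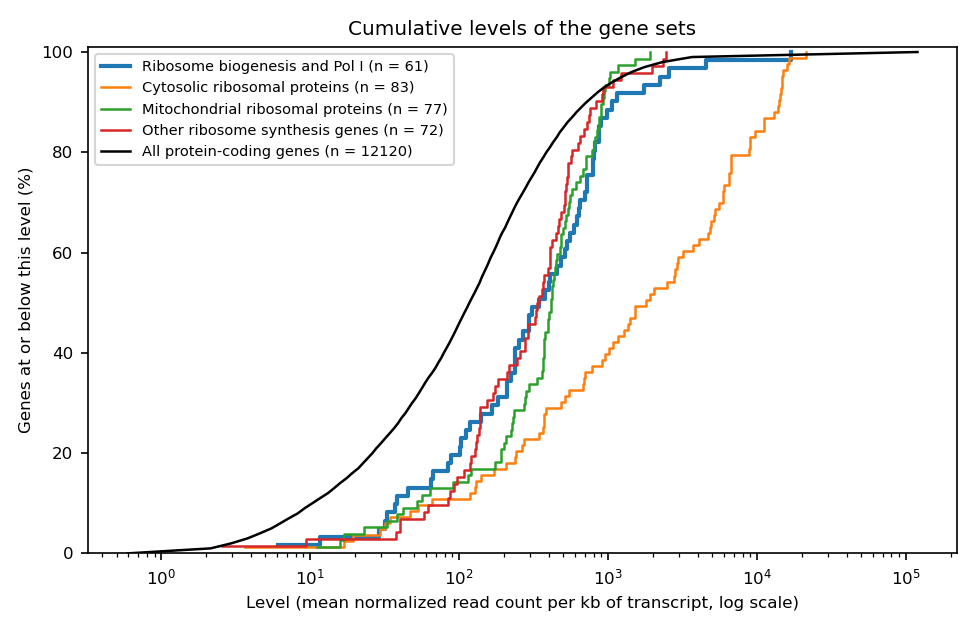
Cumulative share of genes (y axis, %) at or below each level (x axis, mean normalized read count per kilobase, log scale), 1 line per gene set. The line of the 61 genes (thick blue) lies to the right of all protein-coding genes (black) over most of its range, close to that of the other ribosome synthesis genes, and left of the cytosolic ribosomal proteins, whose median was 1790.7.

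The spread among the members was wide, with a highest level 2811 times the lowest. NPM1, a histone and rRNA chaperone of the nucleolus, had the highest level at 16998 per kilobase and ranked 17th of all 12120 genes. NCL (nucleolin), which binds the rRNA precursor, followed at 4559.6. NPM1 alone made up 33.97% of the summed level of the 61 genes, and NPM1 and NCL together 43.1%. The NCL value carries a limit, since its leading transcript was given a length of 890 bases in the table, against 2205 bases for the same transcript in release 44. With the lengths of release 44 the NCL level was 2988. Changed lengths were not particular to NCL. Of the 123 protein-coding transcripts of members found in release 44, 64 had the same length there, and 3 were of another type. The canonical transcript of POLR1D, for example, was given 1166 bases, against 693 in release 44. Levels of genes other than NCL were not recomputed with these lengths. NPM1 also has 6 processed pseudogenes with rows of their own, at 9.17 to 22.2 per kilobase, with which reads may be shared.

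Both snoRNP classes lay above the overall median in every member when all protein-coding transcripts were summed. In the box H/ACA class NOP10 was at 2571 and NHP2 at 1730, while DKC1, the pseudouridine synthase, was at 723 and GAR1 at 343. The first 2 are small proteins with short transcripts, on which a value per kilobase depends most. In the box C/D class NOP58 was at 801, FBL (fibrillarin), the ribose methyltransferase, at 651, RRP9, which is specific to the U3 particle, at 510 and NOP56 at 270.2. For FBL and NOP56 this rests on transcripts tagged as incomplete in release 44, which carried 87.4% and 75.9% of the level. Their canonical transcripts alone were at 81.8 and 65.2, below the overall median of summed levels, and those of the other 6 genes were above it.

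The small-subunit processome was the largest role, with 20 genes, a median of 406 and 18 genes above the overall median. IMP3, a partner of the U3 snoRNA, was highest at 982, followed by UTP4 at 890 and RRP36 at 811. For UTP4, 82.9% of the level rested on transcripts tagged as incomplete. Its canonical transcript alone was at 79.8, below the overall median of summed levels. UTP15, a subunit of the subcomplex that binds the nascent precursor, was at 183. UTP14C, a retrogene copy of UTP14A, was at 87.7, and UTP14A itself was at 376. IMP4, which acts beside IMP3, had the lowest level of all members at 6.05. The other 13 genes of this role ran from 208 (NOP9) to 788 (UTP18).

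The 11 DEAD-box helicases had a median of 292 and divided into 7 genes above the overall median and 4 below it. DDX21, which associates with Pol I and snoRNAs, was at 2235, DDX54 at 869 and DDX27 at 700.2. For DDX54, 58.0% of the level rested on transcripts tagged as incomplete, and its canonical transcript alone was at 204. DDX18, DDX47, DDX10 and DDX55 lay between 238 and 633. DDX49 was at 64.3, DDX52 at 45.4, DDX51 at 38.2 and DDX56 at 11.6, and these 4 genes were all in the lower part of the table. All 4 had under 50% of their level on protein-coding transcripts, and so did DDX10 among the 7 higher ones. Over all transcript types DDX52 was at 369, DDX49 at 136, DDX51 at 114 and DDX56 at 53.8.

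Pol I subunits and factors had a median of 218. POLR1D, a subunit shared with RNA polymerase III, was at 1146 and POLR1E at 719. POLR1A, the largest catalytic subunit, was at 296 and POLR1B, the other large subunit, at 29.1, the lowest of the 6 and the third lowest of all members. POLR1C, also shared with RNA polymerase III, was at 139, and UBTF, the factor that holds ribosomal DNA open for Pol I, at 103. The Pol I subunits under older symbols, which the choice by symbol did not take, had levels of 289 (CD3EAP), 243 (TWISTNB) and 97.0 (ZNRD1). Of the initiation factors outside the member list, TAF1B was at 374, RRN3 at 275, TAF1A at 137 and TAF1D at 61.5, and TAF1C had no row among those analysed. The levels of the enzyme's subunits thus ran from 29.1 to 1146, and both ends rest on transcripts other than the canonical one. In POLR1D a transcript of 668 bases carried 83.7% of the level and the canonical transcript 10.9%, at a level of 125, and the canonical transcript of POLR1B had no row.

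The PeBoW complex, which is needed to process the large-subunit rRNA, had BOP1 at 791, PES1 at 238 and WDR12 at 66.9. The other 8 large-subunit factors had the lowest median of any role, 101.03, with 4 above the overall median. This holds for the 8 symbols chosen, since 34 further large-subunit genes outside the member list had a median of 415, with 28 above the overall median. NOP16 at 864, RRP1B at 308 and RRP1 at 167 were the highest, and RRP1B and RRP1 lie 93434 bases apart on the same strand of chromosome 21. NOP2 and RRP8, both methyltransferases of rRNA, were at 37.3 and 32.8, and NOL12 at 31.8. RRP15 at 118 and NOL9, a polynucleotide kinase, at 84.3 lay between. Among the genes taken by name only or with an unsure role, NOL7 was at 1068, NOL3, known as an apoptosis repressor, at 112 and NOL4L at 101.1.

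**Figure D3:**
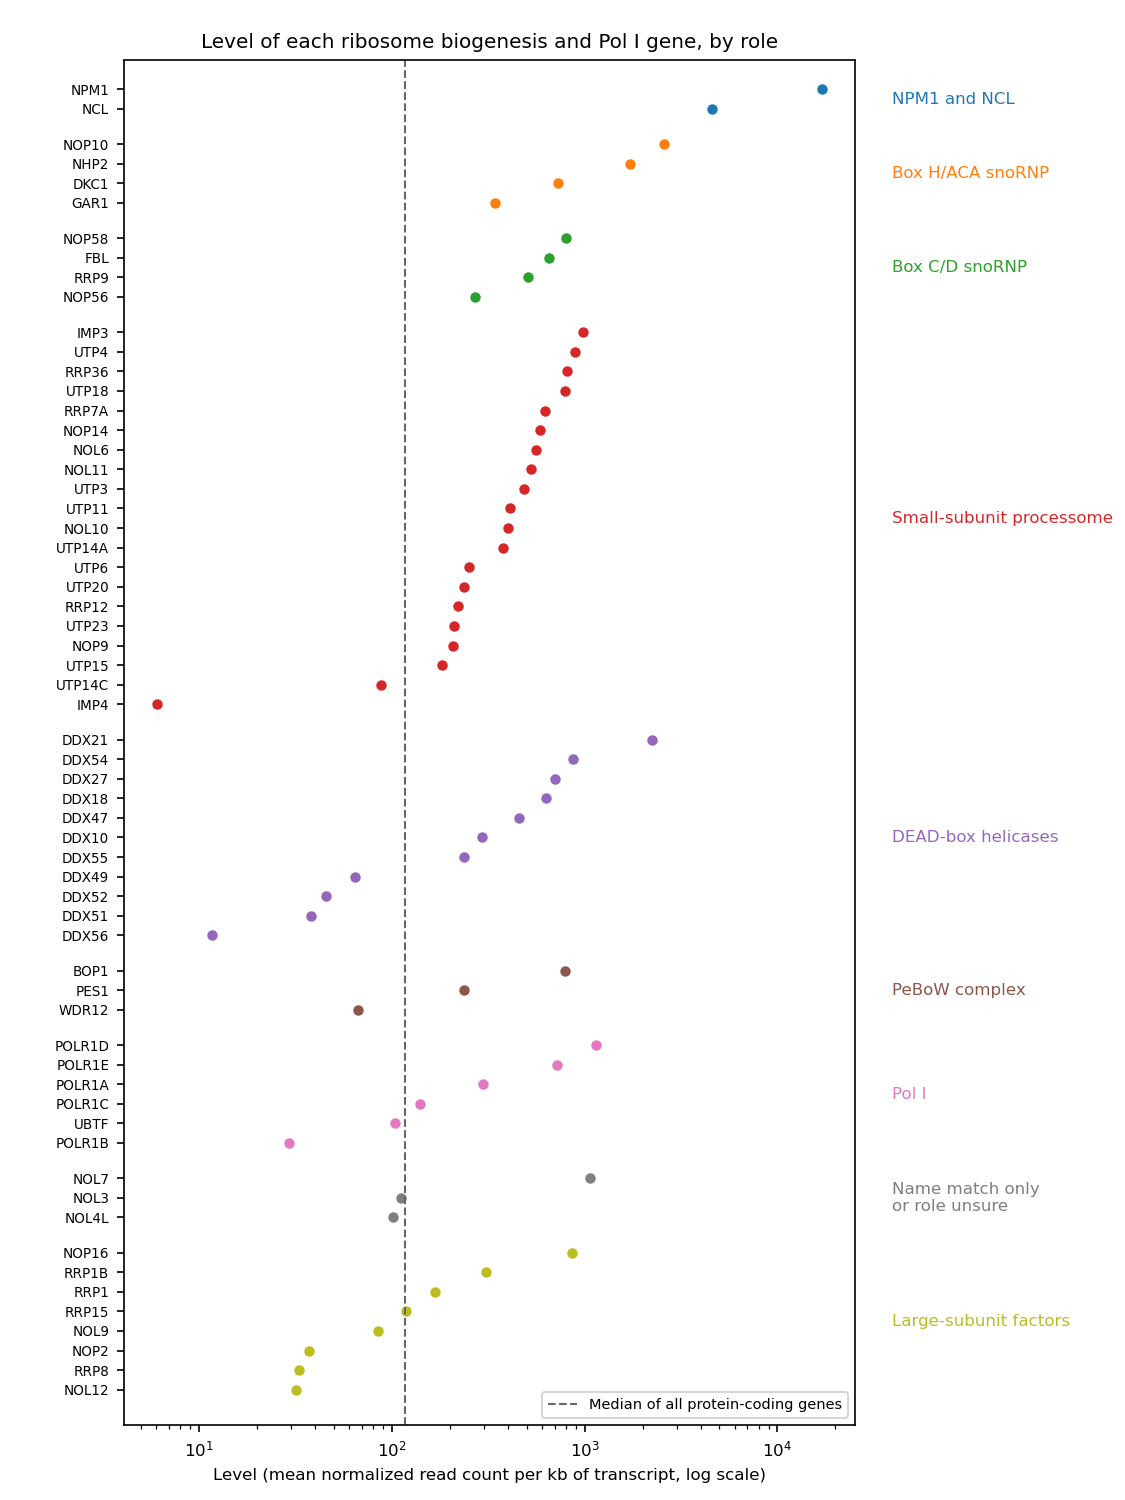
Level of each of the 61 genes (x axis, mean normalized read count per kilobase, log scale), 1 point per gene, grouped and coloured by role, with the median of all protein-coding genes (117) as a dashed line. Both snoRNP classes lie wholly right of the line, and IMP4 (6.05) and DDX56 (11.6) lie farthest left.

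Several members had a large part of their level per kilobase on transcripts not annotated as protein-coding, which do not count towards the levels above. Beside the 129 protein-coding transcripts, 43 of the 61 genes had 108 transcripts of other types under the same symbol. Of the summed level of all these transcripts, 75.7% was protein-coding, 15.5% retained intron, 6.42% processed transcript (no coding sequence annotated) and 2.39% nonsense-mediated decay, the class with a premature stop. Without NPM1 and NCL these shares were 74.5%, 10.3%, 11.1% and 4.13%, so the order of retained introns and processed transcripts turned. The median gene had 81.2% of its level on protein-coding transcripts, against 97.2% over all 12120 genes, 88.3% in cytosolic ribosomal protein genes, 94.2% in mitochondrial ribosomal protein genes and 86.1% in other ribosome synthesis genes. A retained-intron transcript was listed for 27 members (44.3%), against 31.7% of all genes, 48.6% of other ribosome synthesis genes, 29.9% of mitochondrial and 77.1% of cytosolic ribosomal protein genes.

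In 12 of the 61 genes (19.7%) the protein-coding part was under 50% of the level. The share was 13.3% of all genes, but 23.6% of other ribosome synthesis genes, 22.1% of mitochondrial and 21.7% of cytosolic ribosomal protein genes, so it was no higher in the members than in these related sets. IMP4 was the most extreme, with 4.45% on its only protein-coding transcript (10.5 mean normalized reads) and 95.6% on a retained-intron transcript with 309 reads. WDR12 had 5.70% of the level but 49.3% of the reads on its protein-coding transcript, and 4 retained-intron transcripts of 478 to 541 bases had levels of 224 to 384 per kilobase. DDX52 had 12.3%, with nonsense-mediated decay transcripts ahead, and DDX56 (21.6%) and RRP8 (25.3%) likewise. NOP56 had 14.8%, with processed transcripts ahead in level. RRP15 (22.4%) and DDX10 (41.0%) had processed transcripts ahead in level too, but 82.0% and 72.5% of their reads were on protein-coding transcripts. UTP6 (27.4%) and DDX51 (33.5%) had mostly retained introns, and NOL11 (44.1%) and DDX49 (47.2%) were mixed. When reads were not divided by length, 8 genes instead of 12 fell under 50%, and RRP15, DDX10, DDX49 (69.6%) and DDX51 (53.8%) lay above it.

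**Figure D4:**
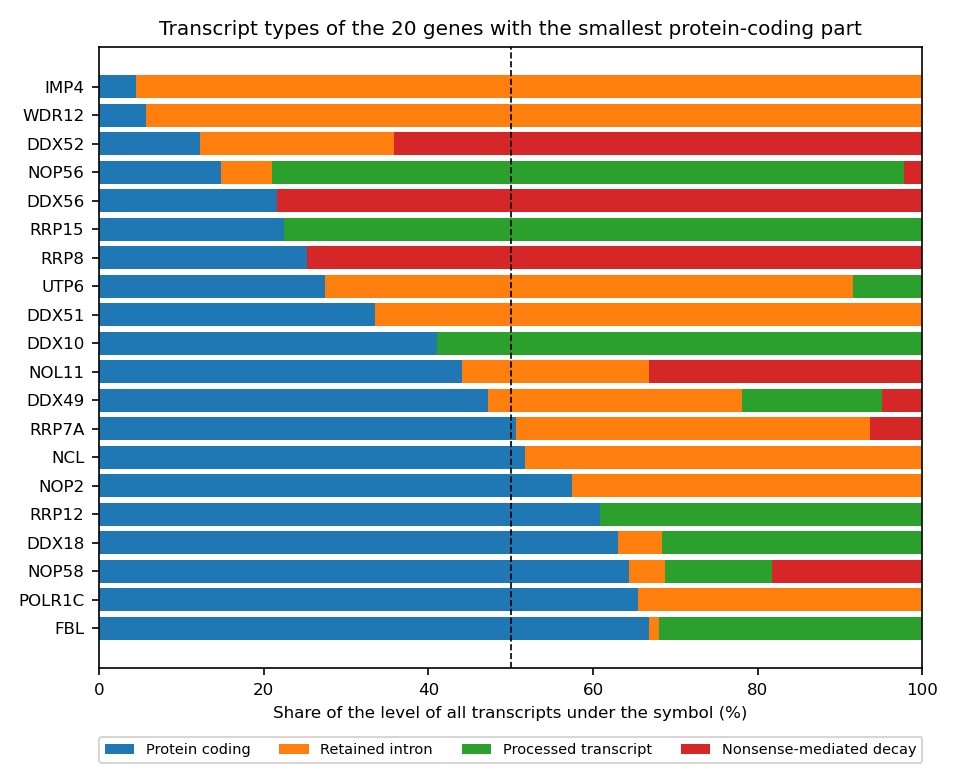
Share of the level of all transcripts under a symbol (x axis, %) by annotated type, 1 bar per gene, for the 20 genes with the smallest protein-coding part. The upper 12 bars, from IMP4 (4.45%) to DDX49 (47.2%), have a protein-coding part left of the dashed line at 50%.

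Within the protein-coding part, 25 genes had 1 listed transcript and 36 had 2 or more, up to 5. The leading transcript carried a median of 90.2% of a gene's protein-coding level. In 19 genes at least 2 transcripts carried 20% or more each. The 2 transcripts of POLR1A carried 55.03% and 44.97%, those of NCL 59.7% and 40.3% (36.8% and 63.2% with the lengths of release 44, which turns their order), and the leading pair of UBTF, whose coding sequences are 2292 and 2181 bases long, 51.9% and 44.4%. NOL11 (50.7% on the leading transcript) and NOP2 (50.5%) were divided nearly evenly in level. By reads, NOL11 had 770 on its canonical transcript and 219 on the leading one, an incomplete model of 815 bases. DDX54 had 4 transcripts between 18.5% and 35.7%, and UTP4 led with 47.8% and 35.1%. In DDX54 incomplete models of 780 and 479 bases had 242 and 92.9 reads, against 891 and 706 on the longer transcripts. In UTP4 the order turned by reads, with 313 on the leading transcript and 682 on the next. The leading share was 72.5% in NOP56, 68.0% in GAR1, 65.9% in UTP6, 63.0% in NOP14, 62.9% in DDX55, 62.4% in RRP8, 62.3% in POLR1C, 62.2% in RRP12 and 58.6% in NOP16. It was 49.7% in NOL3, 44.8% in UTP15 and 34.7% in NOL4L.

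**Figure D5:**
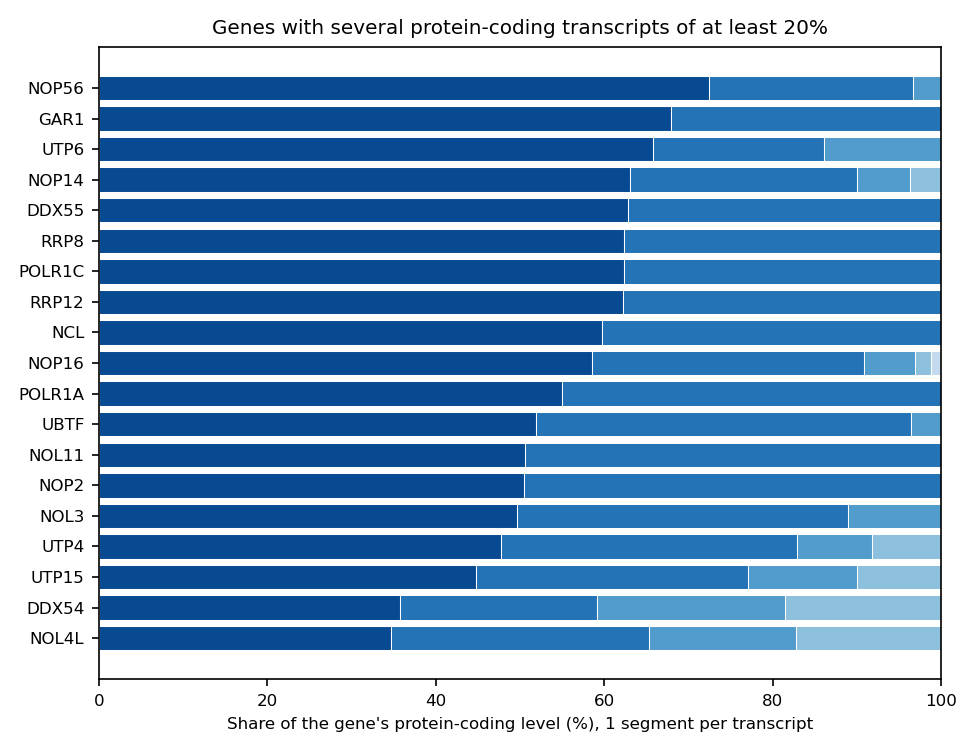
Share of a gene's protein-coding level (x axis, %) carried by each of its protein-coding transcripts, 1 bar per gene and 1 segment per transcript from highest to lowest, for the 19 genes with at least 2 transcripts of 20% or more. The leading segment runs from 72.5% in NOP56 to 34.7% in NOL4L.

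The transcript models set a limit on these shares. The canonical transcript of release 44 was listed for 57 genes, led in 42 of them and did not lead in 15, and it was not listed for NOP2, POLR1B, POLR1C and UBTF. In NPM1 it carried 0.342% of the protein-coding level, while another transcript with a coding sequence of equal length, 882 bases, carried 83.5%. Transcripts tagged as incomplete carried more than 50% of the level in 8 genes, among them FBL, UTP4, UTP6 and NOP56. Some of these models are short, such as that of 410 bases in UTP6, while others are not, such as that of 2186 bases in UTP4. Reads may also be divided with near-identical or overlapping genes. RRP7A (621) has the copy RRP7BP, whose leading row was at 194, NOP56 has the processed pseudogenes NOP56P1 (165) and NOP56P3 (37.4), UTP14A and UTP14C share sequence, and NOP14 (589) overlaps NOP14-AS1, whose leading row was at 86.6 and which cannot be told apart from it without strand.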

How the data were processed

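The labels name bulk RNA-seq libraries of MDA-MB-231, 2 with DMSO and 2 with 10 µM KH-3, both for 24 h. The paper's methods also name a group with a lower dose of KH-3. Whether its libraries entered the deposited mean is not stated. Per the paper's methods and the labels, the authors mapped reads with STAR to GENCODE release 24 transcripts (hg38), estimated reads per transcript with eXpress and compared groups with DESeq2; versions are not given in the sources used here. The deposited table has 1 row for each of 43596 transcripts. The only values used were the signal the authors deposited as the mean normalized read count, pooled over libraries that are not named. No row is under 7.34. The other 3 number columns hold the authors' own comparison of KH-3 with DMSO (log2 fold change, p and q) and were not used. Depth per library is unknown, and no interval is given.

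Levels were computed with Python 3.11.15 and pandas 2.3.3 as mean per kilobase of the listed length, summed over protein-coding transcripts. A check on simulated counts, built from the same listed lengths, covered the arithmetic only and not the lengths or the assignment of reads. Transcript models and 3′UTRs came from GENCODE release 44 and promoters from RefSeq. Protein features were not computed. Alternatives were, beside the release 44 lengths for NCL, the single transcript with most reads, all transcript types, length less 200 bases, a mean of at least 50, no division by length, and leaving out genes matched by name only. Members and lists were chosen with earlier results of these data known, and the role of UTP4 was assigned after the table was seen. Values are named for every member of a role of 6 or fewer genes, otherwise for the 3 highest and 3 lowest, for the 10 highest and 5 lowest of all members, for members with several transcripts of at least 20%, and for Pol I subunits and initiation factors outside the list. Some others are named as examples chosen after their values were seen.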

Additional observations from a re-analysis of the deposited data

How the results depend on the processing

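The median level of 343 per kilobase became 261 with only the transcript with most reads, 521 with all transcript types, 416 with length less 200 bases, 379 with a mean of at least 50 and 376 without NOL3 and NOL4L. The percentile of 77.6 became 78.3, 80.6, 79.0, 75.6 and 79.4 in the same order and 75.2 without division by length. The leading transcript's median share of 90.2% became 93.2% by reads, 66.5% with all transcript types and 68.3% in members with 2 or more coding transcripts. The share of members above the overall median stayed between 75.4% and 78.7% under these alternatives, and the number of members listed was 58 with a mean of at least 50 and 64 with the 3 Pol I subunits under older symbols. No paired analysis was possible because the table has no values per library, and for the same reason no library could be left out. The pooled mean sets the limit: neither depth nor the spread between libraries is known, so no difference between genes could be tested. Chosen after seeing the data, the lengths of release 44 moved the share of NCL's protein-coding level on NCL-015 from 59.7% to 36.8%.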

Other observations

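NOL8 met the choice by symbol but had no protein-coding row. A retained-intron transcript was at 7.28 per kilobase and a nonsense-mediated decay transcript at 2.19. NOP14-AS1 had 4 antisense rows, with levels of 86.6, 83.9, 35.5 and 4.08 per kilobase.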
